A study of Mus musculus with 4 samples.

Results

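The genes described here encode splicing factors, the proteins that find intron boundaries in pre-mRNA, assemble the spliceosome on them and regulate which exons are joined. They were read by 120 of the 55681 non-control probes on the array, chosen by gene name alone: the SR proteins (Srsf), the SF3A and SF3B subunits (Sf3a, Sf3b), the snRNP proteins named Snrp, the hnRNP proteins (Hnrnp), the PRPF proteins and U2AF. The 120 probes stand for 68 of the 34650 distinct gene names on the array, all of which matched a symbol in the RefSeq gene table. No probe carried an old Sfrs name. The label describes these genes well, with the limit that splicing proteins under other names, Snrnp70 among them, are not included and appear below as a separate list.

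In splicing, the U1 snRNP pairs with the start of the intron, and U2AF and the U2 snRNP, which contains SF3A and SF3B, recognise its branch point and end. A ring of Sm proteins forms the core of the U1, U2, U4 and U5 particles, several PRPF proteins belong to the later tri-snRNP and catalytic steps, and SR and hnRNP proteins bind exons and introns and often act in opposite directions on exon choice. In humans SF3B1, SRSF2 and U2AF1 are recurrently mutated in myeloid neoplasms, where such mutations occur together with lesions of TET2, a 5-methylcytosine oxidase, and of the kinase JAK2.

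RNA came from LSK cells (Lin-Sca-1+c-Kit+), the bone marrow fraction that holds stem cells and multipotent progenitors, sorted from the bone marrow of irradiated recipients of E14.5 fetal liver cells, all labelled as C57B6 in strain. There was 1 array per genotype: WT (16 weeks after transplantation), TET2KD, a knock-down of TET2 (10 weeks), JAK2V617F, a transgene with the activating mutation (16 weeks), and the double mutant with both lesions (13 weeks). The design text names 5 mice for each genotype. Whether their cells were pooled, how TET2 was knocked down, which promoter drives the transgene and how many host cells remained are not given in the sources used here. All 3 mutant arrays are compared with the same WT array, so the comparisons share it, and genotype cannot be told apart from weeks after transplantation except between WT and JAK2V617F. With 1 array per genotype there is no replicate spread and no p-value, and every "higher" or "lower" below describes these arrays.

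Levels are scaled log2 signals, on which 0 is the 75th percentile of that array, and a level of one probe is never set against that of another probe. A probe was compared when it was well above background on at least 1 of the arrays concerned, and differences of at least 2-fold were counted. Where one side was not well above background, the fold is given as "at least". Of the 120 probes, 115 were well above background on at least 1 array and 107 on all 4. The 5 that were not on any array were 3 probes for Snrpn, the Sm protein known from brain, the Prpf4 probe and the Hnrnpr probe at 7922. Probes are named by gene and by their first position in the transcript they were designed on.

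The 4 arrays were alike in overall signal, with 75th percentiles between 120 and 144 and 49.3% to 54.4% of all probes well above background. Repeated spots of one probe within an array had an SD of 0.168 to 0.185 on the log2 scale, which covers the spot and leaves out amplification, sorting and animals. On the Tet2 probes at 8857 and 9011 the TET2KD array had 27.3% and 56.3% of the WT signal and the double mutant 60.3% and 61.6%. The JAK2V617F array, without the knock-down, had 72.9% and 105%. The Tet2 probe at 668 was well above background only in the double mutant. Of the genes of the sort, Kit was at 4.18, 3.82, 2.92 and 2.37 in the order WT, TET2KD, JAK2V617F, double mutant, and Ly6a (Sca-1) at 2.13, 3.42, 3.32 and 2.71. Cd34 was well above background on all 4 arrays, and Slamf1 on none. The summed linear level of the dividing-cell markers was 71.8 in WT, 60.3 with TET2KD, 98.5 with JAK2V617F and 98.7 with both lesions, in multiples of each array's 75th percentile over 15 probes. That of granulocyte-monocyte progenitor markers was 50.1, 103, 205 and 235 in the same order over 7 probes. Eosinophil, mast or basophil markers summed to 199, 166, 26.3 and 54.3 over 5 probes, neutrophil markers to 65.5, 94.8, 22.2 and 66.6 over 10, and erythroid markers to 6.75, 27.1, 10.8 and 16.0 over 8. Such sums rest mostly on the brightest probes, and single markers went other ways. Mcpt8 was at -3.50, -4.09, -1.63 and -0.40, and Hba-a1 at 0.21, 4.13, -2.05 and 2.64. In the double mutant 4 of 9 neutrophil probes compared were at least 2-fold above WT and 0 below, against 16.3% and 17.6% of all probes. The ranges over the arrays were 55.1 to 92.4 for monocyte or macrophage, 10.6 to 30.4 for megakaryocyte, 4.04 to 19.3 for B or plasma cell and 24.2 to 40.4 for T or NK cell markers. In bulk RNA, fewer cells of a type and less RNA per cell cannot be told apart, and the part of these differences in the results below was not tested.

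Because many of these genes have several probes that disagree, the sequences of the probes on which the results turn are shown first. They are copied from the array's own annotation, 5′ to 3′ in the sense of the transcript, with positions in mm9. Probes for U2af1, which encodes the smaller U2AF subunit that contacts the AG at the intron end, come first, since one of them differed in the double mutant and the other did not. The probe at 98 (chr17:31791956-31795601, minus strand) reaches across 3646 bases of the genome, so it reads joined exons, in the stretch that encodes the first zinc finger. The probe at 794 lies at chr17:31784080-31784139 on the minus strand, and its first 30 bases are shown.
U2af1 98: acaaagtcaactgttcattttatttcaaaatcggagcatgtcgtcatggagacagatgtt
U2af1 794: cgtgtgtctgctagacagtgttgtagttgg

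U2af2 encodes the larger U2AF subunit, which binds the pyrimidine tract. Its probe at 968 (chr7:5026338-5026396, plus strand) reads the stretch that encodes the second RNA recognition motif and was lower in both arrays with TET2KD. For Srsf3, an SR protein that promotes exon inclusion and mRNA export, the probe at 274 (chr17:29173333-29173392, plus strand) reads the RNA recognition motif, and the probe at 2460 (chr17:29180193-29180252, plus strand; first 30 bases shown) lies far downstream. For Srsf2, the SR protein mutated in human disease, the probe at 728 (chr11:116713385-116713444, minus strand) reads part of the arginine and serine rich tail.
U2af2 968: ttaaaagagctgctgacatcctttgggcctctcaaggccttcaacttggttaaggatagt
Srsf3 274: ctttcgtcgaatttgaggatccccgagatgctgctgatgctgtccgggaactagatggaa
Srsf3 2460: ccagatgagatttaggtatcaatctattcc
Srsf2 728: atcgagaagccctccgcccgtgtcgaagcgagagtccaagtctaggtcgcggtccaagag

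Prpf40b, a homologue of a yeast U1-associated protein, and Sf3b4, the SF3B subunit that contacts RNA near the branch point, each have a pair of probes that disagreed in direction between arrays. The Prpf40b probe at 2173 lies at chr15:99145952-99146011 and the one at 2917 at chr15:99147197-99147256, both on the plus strand. The Sf3b4 probes lie at chr3:95981191-95981250 (1400) and chr3:95981428-95981487 (1637), also on the plus strand. For Prpf40b 2917 and Sf3b4 1400 the first 30 bases are shown. Capitals mark the polyadenylation hexamer AATAAA, which the Sf3b4 probe at 1637 contains. It is also in the stretch that both Snrpa1 probes read; these overlap (chr7:73219407-73219466 and chr7:73219414-73219473, plus strand) and serve as a repeated measurement.
Prpf40b 2173: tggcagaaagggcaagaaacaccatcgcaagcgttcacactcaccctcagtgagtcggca
Prpf40b 2917: ccagaccagagatgggcagtctataccacg
Sf3b4 1400: cagtaactctgtccccattccaatgtcatg
Sf3b4 1637: attagcaacagaAATAAAatgtctggtgat
Snrpa1 1190 and 1183: tacaaatggtaaAATAAAggcgacttactg

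As a group the splicing factor probes were bright. Of the 120, 95 (79.2%) were at or above the 75th percentile in their mean over the 4 arrays, against 23.5% of all probes. Their median level was 1.98 (WT), 1.67 (TET2KD), 2.06 (JAK2V617F) and 2.05 (double mutant), so that TET2KD was the lowest array. Their sequences were poorer in G and C, with a median of 38.3% against 43.3% of all probes, and lay further into the transcript, at a median start of 1424.5 against 752. The hexamer AATAAA, searched in the sense strand only, was in 12 of the 120 (10.0%) and in 10.1% of all probes.

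The first comparison, TET2KD against WT, concerns the knock-down without the transgene. More splicing factor probes were lower than higher: 13 were at least 2-fold lower and 6 at least 2-fold higher of 111 compared. Over all probes 17% were lower and 17.6% higher, so the members were called less often than the background in each direction. Their median log2 difference was -0.13 against -0.02 over all probes, and 61.3% lay within 1.5-fold against 46.8% of all. Among probes at or above the 75th percentile in their mean over the arrays compared, called bright below, 10 of 91 members were called, against 23.7% of all bright probes.

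The lower side in TET2KD included components that recognise the intron end and the branch point. U2af2 968 stood at 1.16 in WT, -0.76 with TET2KD, 0.62 with JAK2V617F and -0.32 with both lesions, and was 3.78-fold lower in TET2KD than in WT. Both arrays with TET2KD were below both without. Sf3b1, the branch-point subunit mutated in human disease, was read by 1 probe (5922), at 0.02 in WT, -1.27 with TET2KD, -0.42 with JAK2V617F and 0.37 with both lesions. It was 2.45-fold lower in TET2KD, while the double mutant was the highest of the 4, so that the lower level was not shared by both arrays with TET2KD. With the normexp background correction the Sf3b1 log2 difference in TET2KD was -0.77 and was not called. Sf3b3, a scaffold of the same complex, had a probe at 4467 at 0.07, -2.52, -0.52 and -2.31 in WT, TET2KD, JAK2V617F and the double mutant, at least 6.06-fold lower in TET2KD. The other Sf3b3 probe (4239) was at 1.59, 1.77, 2.04 and 1.93 and was highest in JAK2V617F. Of the 12 SF3A and SF3B probes, 4 were above 0 in TET2KD, with 3 called lower and 1 higher, against 17% and 17.6% of all probes. Their median was -0.67, the lowest of the 7 role groups.

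Sm proteins lay mostly lower in TET2KD, with log2 differences from -2.07 to 0.28. Of 12 probes compared, 2 were above 0, and the median difference was -0.21, with a single call. That call was Snrpd1 688, at 2.59 in WT, 0.53 with TET2KD, 2.25 with JAK2V617F and 2.78 with both lesions, 4.20-fold lower in TET2KD. The other Snrpd1 probe (466) went the same way by less, from 3.01 to 2.27. Prpf19, the ubiquitin ligase of the PRP19 complex, was spotted 10 times on each array. This gives the spread of its spots within an array, which leaves out amplification, sorting and animals. Its spots averaged -1.23 ± 0.10 (SD of 10 spots) in WT, -3.32 ± 0.68 in TET2KD, where 1 of 10 was well above background, -1.63 ± 0.16 in JAK2V617F (9 spots used) and -1.96 ± 0.24 in the double mutant. The highest TET2KD spot was at -2.50 and the lowest WT spot at -1.42, so the spots of these arrays did not overlap. The level was at least 2.96-fold lower in TET2KD, but with normexp the log2 difference was -0.54 and was not called.

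SR protein probes far into their transcripts went both ways in TET2KD. Some were lower, and others, Srsf4 2166 and Srsf7 1343 among them, were higher than in WT. Srsf3 2460 was at -0.72 in WT, -3.81 with TET2KD, -1.66 with JAK2V617F and -1.62 with both lesions, at least 4.21-fold lower in TET2KD. With normexp this log2 difference was -0.80 and was not called. Upstream, Srsf3 274 was at 6.50, 6.72, 6.77 and 6.73 and Srsf3 752 at 3.56, 3.63, 4.13 and 3.98, with WT the lowest of the 4 on both. Srsf10, which regulates exon choice and represses splicing on heat shock, was 3.29-fold lower in TET2KD on the probe at 1804, from 0.69 to -1.02. On the probe at 2917 it went from 0.78 to 1.08, the other way. For Srsf1, which activates splice sites and is the founding SR protein, the probe at 5317 was 2.96-fold lower and the one at 5399 2.08-fold lower, while that at 2850 was at 3.31 and 3.64. With normexp the log2 differences at 5317 and 5399 were -0.63 and -0.83, and neither was called. Prpf31, a U4/U6 protein of the tri-snRNP, was 2.80-fold lower on the probe at 1787, from 1.87 to 0.39, and went from -1.26 to -0.50 on the probe at 2662.

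WT stood below the other 3 arrays on all 6 probes called higher in TET2KD. The other 3 of these (Srsf7 1343, Hnrnpa2b1 1770 and Hnrnpll) are described below. Prpf39, which acts with the U1 snRNP in alternative splicing, was at -1.74 in WT, 1.62 with TET2KD, 1.08 with JAK2V617F and 0.89 with both lesions on the probe at 3926. This is 10.2-fold, 7.04-fold and 6.17-fold above WT. Sf3b4 1637 was at -2.74, 0.18, -0.07 and -1.40 in the same order, 7.59-fold, 6.36-fold and 2.53-fold above WT. Hnrnph2, a binder of G-rich RNA, was at -0.37, 1.96, 2.07 and 1.18, or 5.03-fold, 5.41-fold and 2.91-fold above WT. Since WT is the common reference, the folds of all 6 probes rest on 1 WT value each. That value was not dim for Hnrnpll, at 1.77 in WT with JAK2V617F at 2.08 and TET2KD at 2.83. The other Prpf39 probe (2454) was at -0.47, -1.10, -0.61 and -0.58 and was highest in WT. With the normexp background correction, which draws dim signals together, the TET2KD log2 differences of Prpf39 3926, Sf3b4 1637 and Hnrnph2 were 2.04, 1.28 and 1.72. For Sf3b4 1637 in the double mutant it was 0.38 and was not called.

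**Figure D1:**
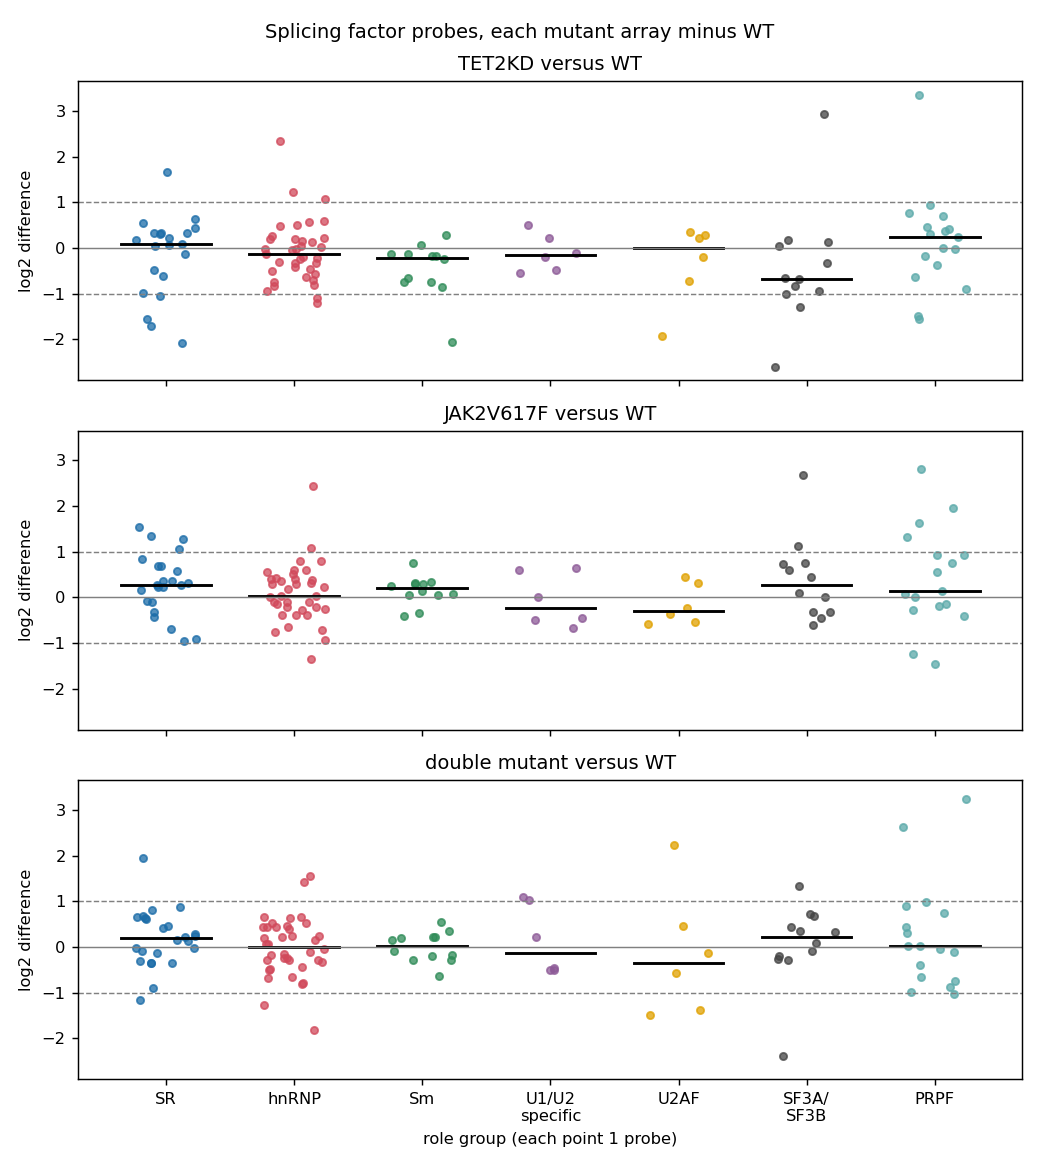
Log2 difference of each compared splicing factor probe (points) between a mutant array and WT, by role group; thick bars are group medians and dashed lines mark 2-fold. The SF3A and SF3B median is -0.67 in TET2KD and 0.27 in JAK2V617F, and no Sm probe passes 2-fold apart from Snrpd1 688 at -2.07 in TET2KD.

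The JAK2V617F array was compared with WT to describe the transgene alone, at the same time after transplantation. Here the balance was the other way: 12 of 113 members were at least 2-fold higher and 3 at least 2-fold lower, against 16% and 16.4% of all probes. The median difference was 0.19 against -0.01 over all probes (0.06 with the probes of each gene averaged first), and 70 members (61.9%) were above 0 against 49.3% of all. Again 64.6% lay within 1.5-fold, against 48.2%. Among bright probes 10 of 92 members were called, against 21.9% of all bright probes.

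Of the 12 higher probes, 4 belonged to SR proteins, 4 to PRPF proteins, 2 to SF3 subunits and 2 to hnRNP proteins. Of 23 SR probes compared 4 were called higher and none lower, with a median of 0.28. Of 12 SF3A and SF3B probes 2 were called higher and none lower, with a median of 0.27. Over all probes 16% were called higher and 16.4% lower, so the higher counts of both groups were near the share of all probes. Srsf2 728, in the stretch for the arginine and serine rich tail, was at 2.21 (WT), 2.26 (TET2KD), 3.27 (JAK2V617F) and 2.67 (double mutant), 2.09-fold higher in JAK2V617F than in WT. With normexp this log2 difference was 0.98 and was not called. The Srsf2 probe at 1060 (3.55, 2.94, 3.83 and 3.78) and the one at 20 (0.32, 0.65, 0.54 and 0.97) were above WT in JAK2V617F by less than 2-fold. Srsf1 2850 was at 3.31, 3.64, 4.58 and 3.93, 2.42-fold higher in JAK2V617F, with both JAK2V617F arrays above both others. Srsf12, a repressor of the SR family with low signal here, was well above background at 256 only in the arrays with JAK2V617F. There it was at least 2.52-fold higher in JAK2V617F than in WT, but with normexp the log2 difference was 0.38 and was not called. Its other probe (2613) was well above background in neither WT nor JAK2V617F. In the double mutant against JAK2V617F the Srsf12 probes were called in opposite directions.

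Of the 17 PRPF probes compared 4 were called higher and 2 lower, against 16% and 16.4% of all probes. Prpf40b 2917 was at 0.34 in WT, 0.80 with TET2KD, 2.29 with JAK2V617F and -0.66 with both lesions, 3.86-fold higher in JAK2V617F. Prpf31 1787 was 2.49-fold higher than WT, at 3.19, the highest of the 4 arrays. Prpf18, needed for the second step of splicing, was 2.75-fold lower, at 1.07 in WT, 1.06 with TET2KD, -0.39 with JAK2V617F and 0.04 with both lesions. Prpf3, a U4/U6 protein, was 2.34-fold lower in JAK2V617F, at 2.0 against 3.22, 3.04 and 3.25 in WT, TET2KD and the double mutant, so that JAK2V617F stood alone. The Sm probes were above 0 in 10 of 12 cases, with a median of 0.20 and none called.

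The double mutant was compared with WT, and with each single mutant, to describe the lesions together. Against WT 9 of 115 members were higher and 7 lower, against 16.3% and 17.6% of all probes. The median was 0.06 against -0.00, or -0.02 when the probes of each gene were averaged first, and among bright probes 10 of 92 members were called against 21.7%. Against JAK2V617F 6 of 115 were higher and 6 lower (13.5% and 14.4% of all), with a median of -0.13. Against TET2KD 12 were higher and 5 lower (15.6% and 17.6% of all), with a median of 0.23.

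Both U2AF subunits had called probes in the double mutant, in opposite directions. U2af1 98 was at 0.71 in WT, 0.99 with TET2KD, 1.17 with JAK2V617F and 2.94 with both lesions, 4.69-fold above WT and 3.42-fold above JAK2V617F. The other U2af1 probe, 794, was at 5.73, 5.95, 6.04 and 6.19, in the same order and within 1.5-fold. Both U2af2 probes were lower than WT, by 2.79-fold at 968 and 2.61-fold at 1633, where the levels were 2.37, 1.65, 1.79 and 0.98. The paralogue U2af1l4 stayed within 1.5-fold of WT, with levels of 1.28 and 0.70 at 478 and 4.01 and 3.89 at 802 in WT and the double mutant. Snrpa1, the U2 snRNP protein that binds U2 RNA with Snrpb2, was at 2.94, 3.43, 3.59 and 4.03 on the probe at 1190, 2.14-fold above WT, and at 2.36, 2.58, 2.96 and 3.38 on the overlapping probe at 1183, 2.02-fold above WT. With normexp the log2 difference at 1183 was 0.98 and was not called. U2af2 and Snrpa1 were the only genes with more than 1 probe whose probes were all called in one direction in this comparison.

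The Prpf40b probes disagreed. At 2173 the levels were -2.43 in WT, -2.46 with TET2KD, -1.86 with JAK2V617F and 0.81 with both lesions, 9.45-fold above WT, and at 2917 the double mutant was the lowest array. Srsf7, an SR protein with a zinc knuckle, was at -1.26, 0.40, 0.29 and 0.68 on the probe at 1343, 3.85-fold above WT in the double mutant, with WT below the other 3 arrays. At 907 Srsf7 was at 3.57, 3.90, 3.94 and 3.72. On the lower side, Sf3b3 4467 was 5.22-fold below WT. Hnrnpdl, a relative of the AU-rich element binder Hnrnpd, was at 0.62, -0.58, -0.10 and -1.19 on the probe at 2637, 3.51-fold below WT, and at 4.36, 4.21, 4.14 and 4.11 on the probe at 1493. Hnrnpk, which binds C-rich RNA, was 2.41-fold lower on the probe at 429 (2.22, 1.28, 1.47 and 0.96), while its probes at 1391 and 1451 stayed within 1.5-fold of WT.

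**Figure D2:**
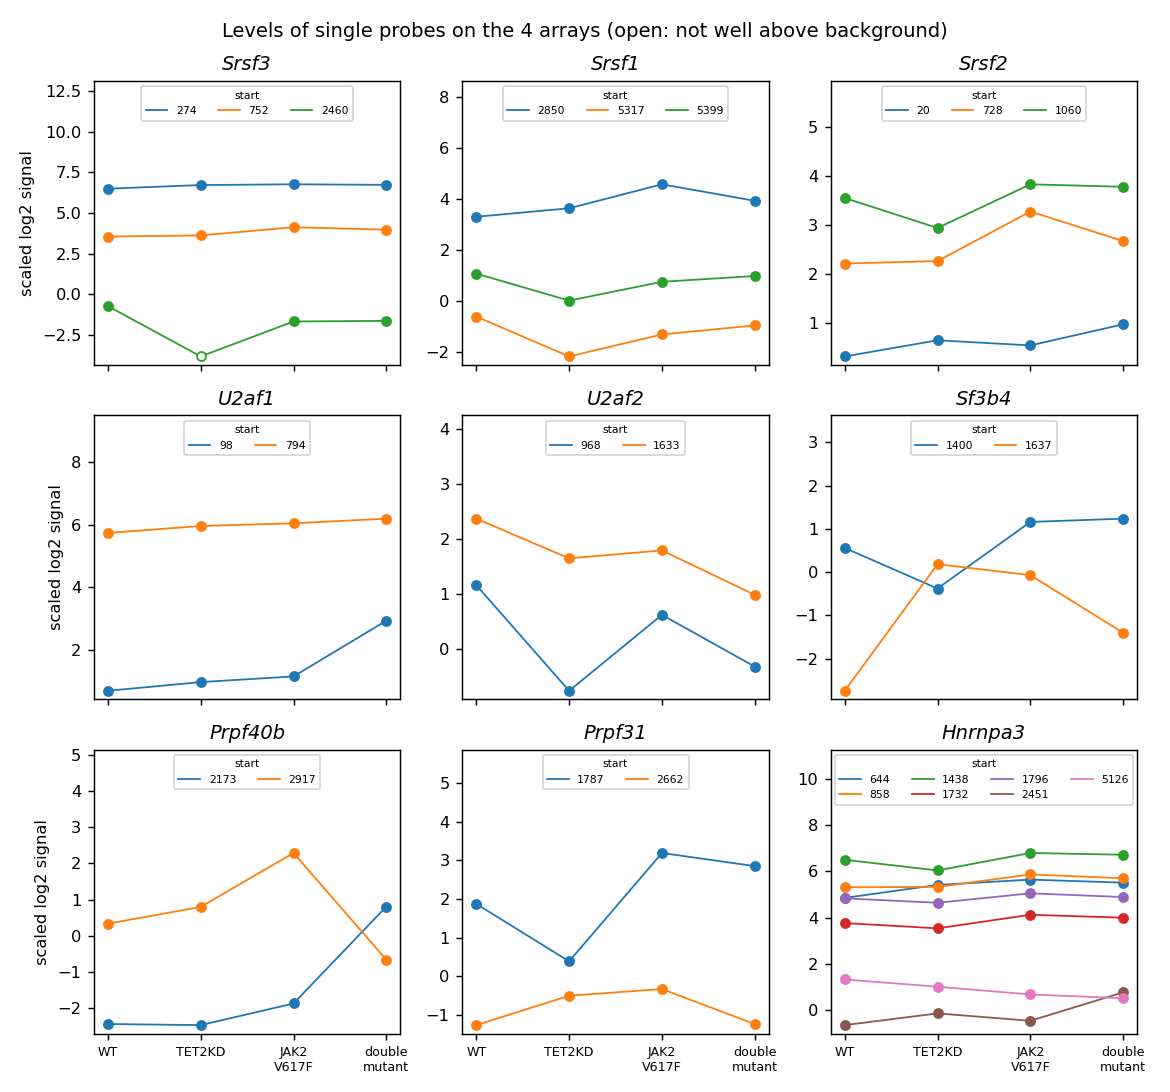
Scaled log2 signal (0 is each array's 75th percentile) of every probe of 9 genes on the 4 arrays; each line is 1 probe, named by its start in the design transcript, and open symbols were not well above background. The Sf3b4 and Prpf40b lines cross, and both U2af2 lines are highest in WT.

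The design crosses both lesions, so that the 2 arrays with a lesion can be set against the 2 without it. These pairs are not replicates, since they differ in the other lesion and in weeks. For JAK2V617F 4 of 115 members were at least 2-fold higher with no overlap and 1 was lower, against 6.53% and 9.33% of all probes. The median was 0.21 against -0.07 over all probes. Without the 2-fold condition, and over probes well above background on all 4 arrays, both JAK2V617F arrays lay above both others for 35 of 107 members (32.7%), against 18.5% of all probes, and below them for 8 (7.48%), against 20.8%. For TET2KD 1 member was at least 2-fold higher and 3 were lower, against 6.11% and 5.1% of all probes, with a median of -0.16 against 0.00. Both TET2KD arrays lay below both others for 24 of 107 members (22.4%), against 16.0%, and above them for 9 (8.41%), against 15.8%. The shifts of the medians are smaller than 1.5-fold, and probes of 1 gene are not independent.

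By role, the JAK2V617F contrast was above 0 for 11 of 12 Sm probes (median 0.35), 20 of 24 SR probes (median 0.30) and 10 of 12 SF3A and SF3B probes (median 0.56). It was above 0 for 11 of 17 PRPF probes (median 0.19), 20 of 38 hnRNP probes (median 0.05), 3 of 6 U1 and U2 specific probes (median -0.03) and 2 of 6 U2AF probes (median -0.06). Over all probes 45.1% were above 0. The TET2KD contrast was above 0 for 1 of 12 Sm probes (median -0.28), 3 of 12 SF3A and SF3B probes (median -0.35) and 11 of 38 hnRNP probes (median -0.16). It was above 0 for 9 of 24 SR probes (median -0.11), 8 of 17 PRPF probes (median -0.05), 3 of 6 U1 and U2 specific probes (median -0.02) and 3 of 6 U2AF probes (median 0.01), and for 50.1% of all probes. The members called in the JAK2V617F contrast were Prpf40b 2173 (3.78-fold), Prpf31 1787 (3.71-fold), U2af1 98 (2.31-fold) and Sf3b4 1400 (2.15-fold) on the higher side, and Prpf18 (2.37-fold) on the lower. Prpf31 1787 is the clearest of these by level, at 3.19 and 2.85 with JAK2V617F against 1.87 and 0.39 without. The other Prpf31 probe (2662) did not share this contrast. Its JAK2V617F log2 difference was 0.93 without TET2KD and -0.73 with it. For Prpf40b 2173 and U2af1 98 the contrast rested on the double mutant. In the TET2KD contrast U2af2 968 (2.69-fold), Hnrnpdl 2637 (2.21-fold) and Sf3b3 4467 (at least 4.58-fold) were lower, and Srsf7 1343 (2.04-fold) was higher.

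The hnRNP proteins, with 39 probes for 20 genes, had medians near 0. These were -0.14 (TET2KD), 0.04 (JAK2V617F) and 0.01 (double mutant) against WT, and of 37, 37 and 38 compared probes 5, 3 and 4 were called, against 34.5%, 32.5% and 33.9% of all probes. The abundant Hnrnpa1, which represses exons, was at 3.50, 3.18, 3.78 and 3.32 on the probe at 612, and Hnrnpu, a nuclear matrix protein, at 5.21, 5.16, 5.59 and 5.74. Neither gene had a called probe. Hnrnpll, which directs CD45 splicing in lymphocytes, was at 1.77 in WT and 2.83 in TET2KD, 2.09-fold higher, with JAK2V617F at 2.08 and the double mutant at 2.42. Hnrnpr at 2613 was 2.14-fold lower in TET2KD, with WT (2.47) above the other arrays (1.38, 1.53 and 2.03). Hnrnpa2b1, which binds exon silencers and sorts RNA, again differed by probe. At 1770 it was 2.33-fold higher in TET2KD (-0.36 in WT and 0.86), at 1707 2.56-fold lower in JAK2V617F (-0.65 in WT and -2.01), and at 1343 it was below WT on the other 3 arrays (3.24, 2.49, 2.99 and 2.58). With normexp the folds given here for Hnrnpll, Hnrnpr, Hnrnpa2b1 1770 and Hnrnpa2b1 1707 became log2 differences of 0.95, -0.98, 0.78 and -0.58, and none was called.

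Among the core snRNP proteins without a call, the U1 proteins Snrpa (4.11, 3.91, 3.62 and 3.64) and Snrpc (2.56, 2.07, 2.12 and 2.07 at 648, and 1.31, 0.77, 0.64 and 0.80 at 704) were highest in WT on all 3 probes. Snrpb2 of the U2 snRNP was at 3.76, 3.65, 3.76 and 3.98. Prpf8, the U5 protein at the catalytic centre, was at 2.09, 2.40, 2.84 and 2.84, with both JAK2V617F arrays above the others. The Sm protein gene Snrpg also had both JAK2V617F arrays above the others on each of its probes, at 6.58, 6.39, 6.91 and 6.93 and at 6.73, 6.55, 7.01 and 6.94.

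**Figure D3:**
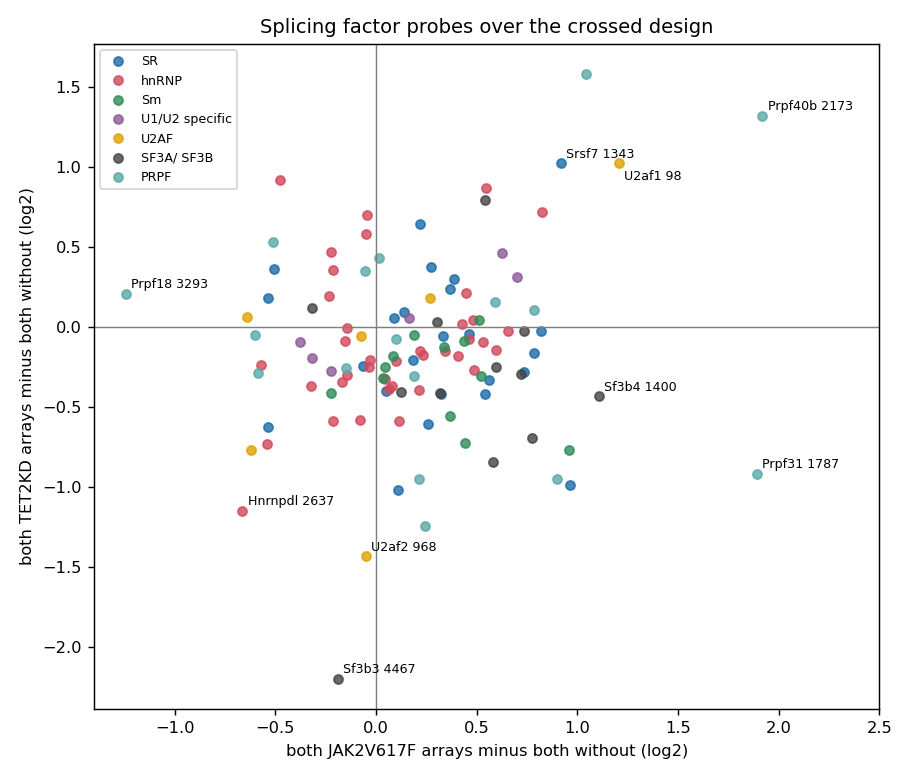
Each point is 1 splicing factor probe, with the log2 difference between both JAK2V617F arrays and both others on the horizontal axis and that between both TET2KD arrays and both others on the vertical axis; labels mark probes called in either. More points lie right of 0 (77 of 115) and below 0 (38 of 115 are above).

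**Figure D4:**
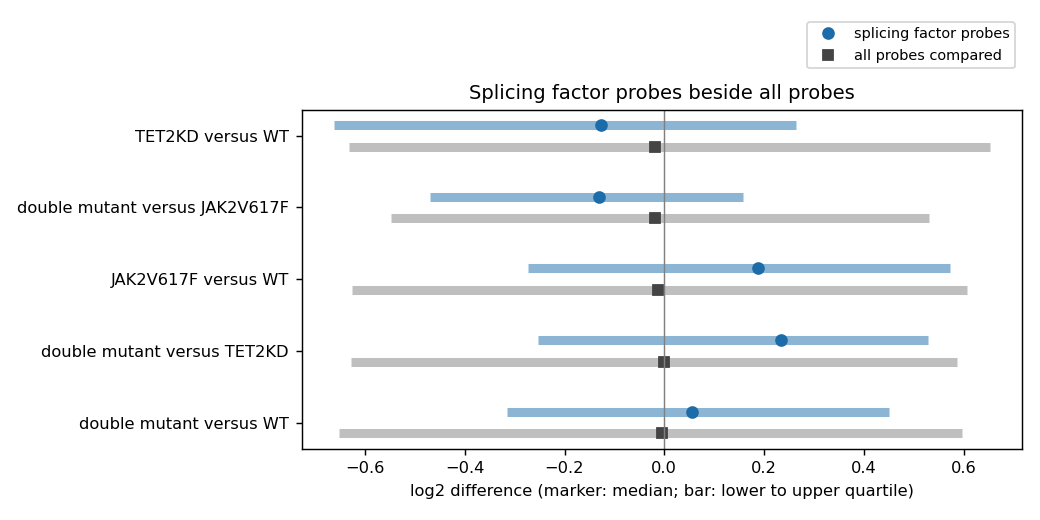
Median (marker) and lower to upper quartile (bar) of the log2 difference for splicing factor probes and for all probes compared, in 5 comparisons of 2 arrays. The splicing factor medians lie at -0.13 in both TET2KD steps and at 0.19 and 0.23 in both JAK2V617F steps, and their bars are shorter than those of all probes.

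Disagreement between probes occurred in many genes. Among probes well above background on all 4 arrays, 62 pairs in 31 genes read the same gene without overlapping. Their log2 differences against WT were a median of 0.60 apart in TET2KD, and 0.43 and 0.43 in JAK2V617F and the double mutant. The gap was at least 2-fold for 17, 14 and 16 pairs, and 27, 40 and 42 of the 62 pairs had the same direction. Pairs of the same gene share probes and are not independent, and Hnrnpa3, with the most probes, gives the most pairs. The pairs of overlapping probes, 1 each in Snrpa1 and Snrpd2, were at most 0.28 apart. Among genes with at least 2 compared probes, all probes had one direction in 13 of 34 in TET2KD, 19 of 34 in JAK2V617F, and 22 of 36 for the double mutant.

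Hnrnpa3, which has the most probes (7), shows this. Its 5 probes between 644 and 1796 were above WT in JAK2V617F and in the double mutant, as at 1438 (6.50, 6.03, 6.79 and 6.71). The probe at 5126 was at 1.32, 1.01, 0.67 and 0.51, below WT in each mutant, and that at 2451 was 2.67-fold above WT in the double mutant. With normexp the log2 difference at 2451 was 0.99 and was not called. The probe at 1796 and the Snrpf probe each share a stretch of 30 bases with a probe of another name, so their signals could hold RNA of another locus. Position in the transcript went with the calls, among members and among all probes alike. Of members starting before 1000, 7.69% were called in TET2KD, and of those starting at 2000 or later 23.7%. Over all probes these shares were 31.5% and 39.0%. In JAK2V617F they were 9.76% and 15.8% of members, against 29.8% and 37.1% of all probes. In the double mutant they were 7.32% and 17.5% of members, against 31.2% and 38.5% of all probes. Among members G and C content had no common order over the comparisons. Of the 19 members with at least 50%, 0% were called in TET2KD, and 21.1% and 10.5% in JAK2V617F and the double mutant. Of members under 40% these shares were 20.7%, 8.47% and 16.4%. Over all probes fewer were called at higher G and C content. The shares were 38.1%, 36.2% and 37.4% under 40%, and 26.3%, 25.1% and 24.8% at 50% or more.

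Other splicing genes were taken from a list of 130 names outside the naming rule (other snRNP and LSm proteins, helicases, PRP19 complex proteins, kinases, regulators and SMN complex members), of which 129 had a probe. In TET2KD 26 of 202 probes were higher and 39 lower (17.6% and 17% of all probes), with a median of -0.34 and 36.6% above 0, where 49.1% of all probes were. In JAK2V617F 37 of 206 were higher and 20 lower (16% and 16.4% of all), with a median of 0.16. In the double mutant 32 of 205 were higher and 19 lower (16.3% and 17.6% of all), with a median of 0.00. Several of these counts are close to the share of all probes. In TET2KD the largest difference on the lower side was in Sart3, a recycling factor of U4/U6, 12.9-fold lower at 3487, and Prmt5, which methylates Sm proteins, was 3.50-fold lower, from 2.84 to 1.03. On the higher side the helicase Dhx38 (Prp16 in yeast) was 11.8-fold above WT in TET2KD and 5.76-fold in JAK2V617F. The human counterparts of Ddx41 and Zrsr2 are also mutated in myeloid disease. Ddx41 was at -4.24 in WT, not well above background, and at 0.05, -1.15 and -1.78 in TET2KD, JAK2V617F and the double mutant. It was at least 8.36-fold higher in TET2KD than in WT, a fold that rests on 1 low WT value. Zrsr2 was dim, and none of its 3 probes was well above background on all 4 arrays.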

How the data were processed

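Per the file headers, the authors' scanner files hold intensity values from Agilent Feature Extraction 10.7.3.1 with background already subtracted. The deposited series matrix holds log2 values, equal to log2 of that intensity minus a constant per array (0 probes off by more than 0.001; column medians -2.64, -2.63, -2.60 and -2.60). The basis of that constant is not given in the sources used here. Outlier-flagged spots were dropped, log2 signals were scaled to the 75th percentile and spots of a probe averaged. All 4 arrays lay on 1 slide, and no member was saturated. A side not well above background was set to the higher of its own signal and the lowest signal well above background on that array. The steps were tested on simulated arrays.

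Members and lists were chosen with earlier results of these data known. Named were all probes of Sf3b1, Srsf2 and U2af1, the largest differences each way that also passed 2-fold with normexp (limma 3.58.1, offset 50), dim ones apart, the largest of each crossed contrast, and genes with at least 3 probes. Other named probes, and the genes named from the list of other splicing genes, were chosen after their values were seen. Alternatives were normexp, quantile scaling, the median of detected probes as the scale, stricter and no filters, the series matrix and the brightest probe per gene. Bright probes alone, the mean of probes per gene, and all alternatives for the double mutant against each single mutant were added after seeing the data. One member gene that the rule would name is not reported here.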

Additional observations from a re-analysis of the deposited data

Results flagged for a closer look

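On 2 probes a lesion's difference was at least 2-fold in one direction without the other lesion and at least 2-fold in the opposite direction with it. For Prpf40b at 2917 the JAK2V617F log2 difference was 1.95 without TET2KD and -1.46 with it. For Sf3b4 at 1637 the TET2KD difference was 2.92 without JAK2V617F and -1.33 with it, and the JAK2V617F difference was 2.67 without TET2KD and -1.58 with it. The difference between these steps was not tested, since each genotype has 1 array. Opposite steps of this size were present for 1 of 107 members (0.935%) in the TET2KD steps and 2 (1.87%) in the JAK2V617F steps, against 3.66% and 3.69% of 22096 probes well above background on all arrays. The other Prpf40b and Sf3b4 probes did not show these reversals. With normexp the negative steps above, -1.46, -1.33 and -1.58, each became smaller than 2-fold. Sf3b4 1637 then differed from WT by 1.28 (TET2KD), 1.11 (JAK2V617F) and 0.38 (both lesions). Prpf40b 2917 then differed from WT by 0.29, 1.61 and -0.67 in that order. The WT level of Sf3b4 1637, at -2.74, was also near the lowest signal well above background on that array, -3.01.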

How the results depend on the processing

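With 1 array per genotype, counts and folds carry no replicate error, and dim probes limit the rest. No paired analysis was possible because each genotype has 1 array. No named difference changed direction under the alternatives run. For the double mutant against JAK2V617F the member counts, 6 higher and 6 lower, tipped either way under the alternatives given below. With normexp, members called in TET2KD numbered 3 higher and 5 lower, those in the JAK2V617F contrast 1 higher and 0 lower, and those in the TET2KD contrast 0 higher and 1 lower. With the brightest probe per gene the counts were 3 higher and 5 lower in TET2KD, 3 and 2 in the double mutant, 2 higher in the JAK2V617F contrast, and 0 and 0 in the TET2KD contrast. With bright probes only, TET2KD had 3 higher and 7 lower, the double mutant 5 higher, and the TET2KD contrast 1 lower. With no filter and no floor the TET2KD contrast had 2 higher. Of the double mutant against JAK2V617F, counts were 3 higher and 1 lower with normexp, 1 and 3 with the brightest probe per gene, and 3 and 2 with bright probes. Of the double mutant against TET2KD, they were 1 lower with normexp, and 6 and 7 higher with the brightest and bright probes. Counts not given here stayed within 1.5 times in these 7 comparisons. Of 398 alternative values of 67 named differences, 44 moved and 354 did not. Probe medians kept their sign in these settings. With the probes of each gene averaged first, the median for the double mutant against WT turned from 0.06 to -0.02 (33 of 66 genes above 0), and that for JAK2V617F against WT was 0.06 in place of 0.19.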
